A study of Homo sapiens with 21 samples.

Results

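Tight junctions seal the space between epithelial cells, and the 9 genes described here encode proteins of that seal or of the polarity machinery that places it: CLDN1, CLDN3, CLDN4, CLDN7, OCLN, MARVELD2, TJP1, TJP3 and CRB3. They were chosen by name, and each symbol matched 1 of the 60617 genes in the expression tables. Messenger RNA was sequenced, from one end of each fragment, in 7 untreated lines. All derive from SUM149PT, a cell line of inflammatory breast cancer labelled negative for the estrogen and progesterone receptors. The lines were Parental, the line of origin, and 6 clones (E, the EM clones EM1, EM2 and EM3, and the M clones M1 and M2), with 3 libraries each and 21 in all. The series title places an intermediate state of epithelial-mesenchymal transition at the centre of the study, and the clone names follow the letters of that transition, although the labels do not spell them out. Each clone is a single clone, so a difference between E and another clone is a difference between 2 clones and not between 2 kinds of clone. Parental is the line of origin and not a clone, so its comparison sets that line against 1 clone. Whether the 3 libraries of a line are from separate cultures is not stated in the labels, and the p-values below measure only the spread between these libraries.

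Claudins are small membrane proteins with 4 membrane spans that form the strands of the junction and set which ions pass. Occludin (OCLN) and tricellulin (MARVELD2) are larger proteins of the MARVEL family, and tricellulin sits where 3 cells meet. ZO-1 (TJP1) and ZO-3 (TJP3) are scaffolds on the inner face of the membrane that tie claudins and occludin to actin, and ZO-1 also serves other cell contacts. CRB3 is a short membrane protein of the Crumbs complex, which marks the apical side of the cell. In epithelial-mesenchymal transition, cells take these junctions apart, and the repressors ZEB1, SNAI1 and SNAI2 bind E-box sequences in promoters of several junction genes.

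Total expected counts, the reads assigned to genes, were 24602417 to 48149939 per library. By mean effective length of the transcripts, a measure in the tables that no label mentions, the 18 clone libraries split into 2 sets. Of 8 libraries with short means (1998 to 2058 bases), 3 were those of E and 5 were the replicate 3 of the remaining clones. The 10 others had means of 2142 to 2258 bases (the long set), with the Parental libraries in the gap and at its upper edge (2079.9 to 2144.5 bases). Because E lies wholly in 1 set, values from a fit with the set as a term and values from the short set alone are given where they change a call on one of the 9 genes. In the short set each clone other than E has 1 library, so a p-value there rests on the spread of the E libraries alone. For single genes, only the size of the difference is therefore given from that set. The epithelial keratins KRT8 and KRT18 were present in every library, at 263 to 4914 and 56.0 to 475 TPM (a level scaled for transcript length and library total). KRT19 and CDH1 (E-cadherin), also epithelial, ran from 0 to 907 and from 0 to 118 TPM, each with 1 library at 0. All 4 were lower than E in both M clones, as given below. The progesterone receptor gene PGR reached at most 0.05 TPM and the estrogen receptor gene ESR1 at most 2.26. Of 12 markers of blood, vessel, nerve and stromal cells, all but CD68 and MBP summed to 0.8 to 6.22 TPM per library. CD68, a lysosomal gene, held 15.5 to 226 TPM, and MBP held 0.01 to 16.6.

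The 9 genes lie on 6 chromosomes (GRCh38, positions from GENCODE 29), with 2 pairs of neighbours. CLDN3 (chr7:73768997-73770270, minus strand) and CLDN4 (chr7:73799542-73832693, plus strand) are 29.3 kb apart. MARVELD2 (chr5:69415065-69444330) and OCLN (chr5:69492292-69558104), both on the plus strand, are 48.0 kb apart. CLDN1 lies at chr3:190305701-190322475 on the minus strand, TJP1 at chr15:29699367-29968865 on the minus strand and TJP3 at chr19:3708109-3750813 on the plus strand. CLDN7 (chr17:7259903-7263983, minus strand) overlaps ELP5 on the other strand, and CRB3 (chr19:6463777-6467221, plus strand) overlaps SLC25A23 and DENND1C on the other strand. The strand setting of the counting was not given in the sources used here, so reads of overlapping genes may be shared. Both genes nevertheless fell to at most 0.30 TPM in clone M2.

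The promoter sequences of these genes differ in how many E-boxes they hold, which is why the following stretches are shown. The E-box searched was CAGGTG, which reads CACCTG on the other strand, over the 250 bases before each gene start in RefSeq (GRCh38.p14). All 9 genes had a window, 15 windows in all because some genes have several starts, and 6 windows of 5 genes (CLDN7, OCLN, TJP1, TJP3 and CRB3) held an E-box. Among all 35116 windows of the reference, 17.49% held at least 1. The CRB3 window held 5, a number reached by 26 of all windows (0.074%), and one of the 2 CLDN7 windows held 4, a number reached by 43 (0.122%). OCLN had 1 in each of its 2 windows, TJP1 had 1 in 1 of its 4, and TJP3 had 1. CLDN1, CLDN3, CLDN4 and MARVELD2 had no such letters in these windows. The longer motif AACCGGTT, to which grainyhead-like factors such as GRHL2 bind, was in none of the 15 windows and in 0.12% of all windows. The stretches are written 5′ to 3′ on the gene's own strand, with the E-boxes in capitals.
CRB3, chr19:6464041-6464070: tgCAGGTGtaaggtccccctcaCACCTGcg
CRB3, chr19:6464117-6464136: cccgttaCAGGTGcgcccac
CRB3, chr19:6464175-6464194: cgaggctCAGGTGcacaagc
CRB3, chr19:6464204-6464223: gctctccCAGGTGagtgact
CLDN7, chr17:7262640-7262659: tcctcctCACCTGggcaagg
CLDN7, chr17:7262601-7262620: tccggttCAGGTGagtgtcc
CLDN7, chr17:7262479-7262504: tatactCAGGTGcgcccCACCTGtcc
OCLN, chr5:69492507-69492526: cgagtttCAGGTGaattggt
TJP1, chr15:29969125-29969144: cggcgcgCAGGTGgcccggc
These matches describe letters and are not evidence of binding.

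The comparison of each line with E asks how far each line departs from clone E. In M1, 8 of the 9 genes were lower than in E, all but TJP1, while 18.1% of the 18632 genes tested were called lower (edgeR quasi-likelihood test, Benjamini-Hochberg adjusted p under 0.05 over all genes tested, here and below). In M2, 8 of 9 were lower, all but CLDN1, against 26.8% of all genes. The EM clones were less far from E: 2 of 9 were lower in EM1 (8.09% of all genes), 5 of 9 for EM2 (6.95%) and 6 of 9 for EM3 (7.96%). In Parental, CLDN3 alone was lower, 1 of 9, beside 5.02% of all genes. These comparisons share the libraries of E, so their values are given side by side and their overlap is not counted as a result. The median log2 fold change of the 9 genes was -1.28 in EM1, -1.64 for EM2 and -1.71 for EM3, then -5.41 for M1 and -8.20 for M2, and it was -0.94 for Parental, while the median over all genes tested lay between 0.008 and 0.042. With genes that had no count in M2 set to the bound that 3 counts allow, the M2 median was -6.79. In these bulk libraries, fewer cells that express a gene and less of its RNA per cell cannot be told apart. Of the 12 markers of other cell types, 7 were tested. CDH5 and MBP were lower than E in M1 and PDGFRB was higher, and in M2 CD14, CD68, VWF, CDH5 and MBP were lower and PDGFRB was higher. In the EM clones CDH5 was lower in all 3 and CD14 in EM1, while MBP was higher in EM1 and PDGFRB in EM2. PDGFRB, a receptor of stromal cells, had a mean of 0.02 TPM in E, 0.60 in M1 and 3.30 in M2. The 12 markers summed to 133 to 137 TPM in E, 84.8 to 183 in the EM clones, 160 to 229.7 in M1 and 18.9 to 45.4 in M2, and CD3E reached at most 0.05 in any library. The part of these genes in the members' differences was not tested.

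**Figure D1:**
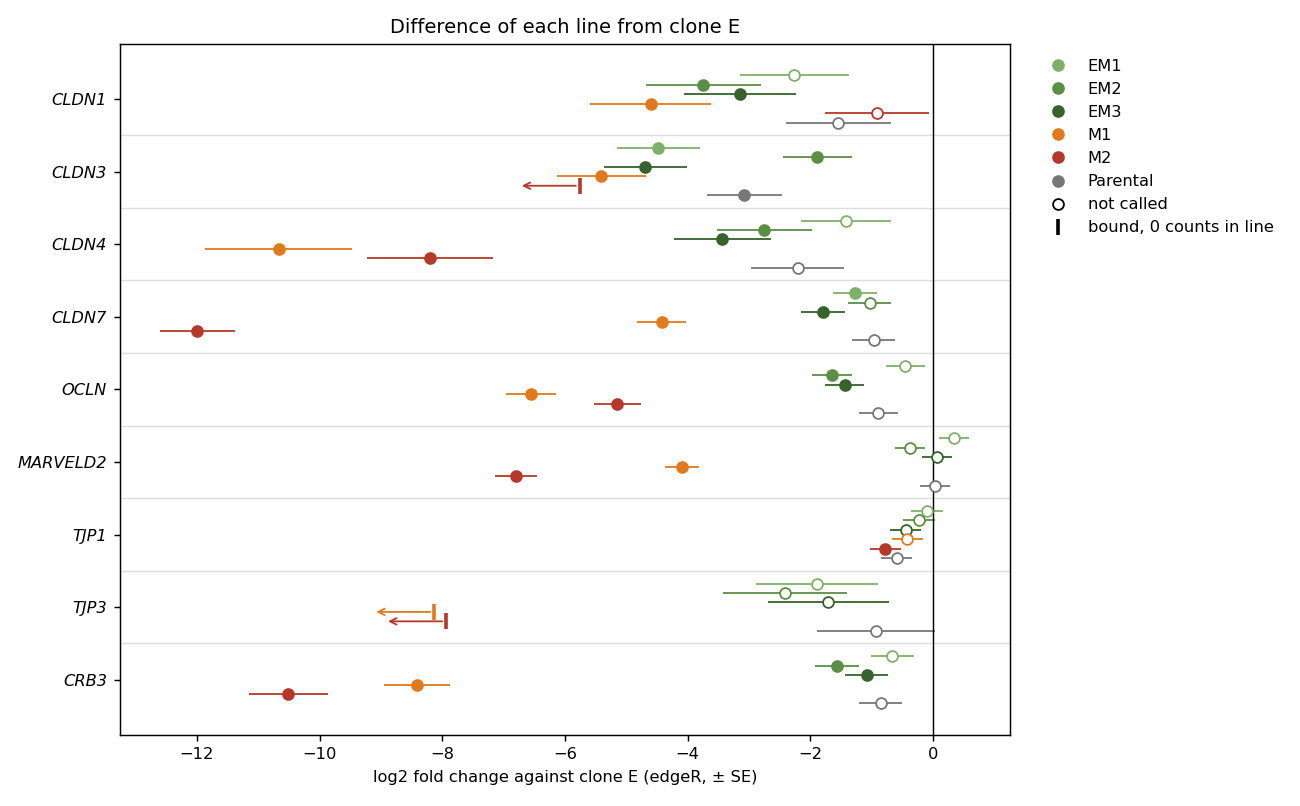
Log2 fold change of each gene against clone E (x axis, edgeR, ± SE) for EM1, EM2, EM3, M1, M2 and Parental; filled points were called, open points were not, and ticks with arrows are bounds for lines with 0 counts in all 3 libraries. M1 and M2 lie far to the left for every gene except TJP1 and, in M2, CLDN1, and CLDN7 in M2 reached -11.99.

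The M clones were then set against the EM clones as the mean of M1 and M2 minus the mean of EM1, EM2 and EM3, which leaves E out. Libraries are the units of this test, so its p-values hold for these clones and not for M against EM as kinds of clone. In that comparison 7 of 9 genes were lower, all but CLDN1 and TJP1, while 24.6% of all genes tested were called lower. TJP1 was also lower without M2 replicate 2 (-0.52, adjusted p = 0.0108). The median log2 fold change of the 9 genes was -5.45, beside -0.04 over all genes. The call for CLDN3 rested on few counts. Its adjusted p was 0.000787 over all libraries and 0.0509 in the long set alone.

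CLDN7 was the most abundant claudin in E, the EM clones and Parental, and the member with the widest range in TPM. Its levels in E were 347, 381 and 413 TPM (replicates 1 to 3). EM1 held 178, 141 and 271, EM2 held 153, 194 and 284, EM3 held 113, 142 and 154, and Parental held 203, 179.5 and 264. Every EM and Parental library thus lay below every E library and well above both M clones. The M1 libraries held 26.4, 15.5 and 26.9 TPM, and the M2 libraries 0.13, 0 and 0.30, from 2, 0 and 6 counts. M1 kept 6.04% of the mean TPM of E and M2 kept 0.0377%. The log2 fold change against E was -1.28 ± 0.36 (SE) in EM1 (adjusted p = 0.0186), -1.80 ± 0.36 in EM3 (0.00205), -4.43 ± 0.41 in M1 (1.58e-07) and -11.99 ± 0.61 in M2 (1.94e-11). In EM2 it was -1.03 ± 0.35 and missed the threshold (adjusted p = 0.0602). It was -0.44 in the short set alone and -0.59 with the set as a term, where it also missed (adjusted p = 0.0827). It passed without EM2 replicate 3 (-1.45, adjusted p = 0.0157) and without EM1 replicate 3, M2 replicate 2 or M2 replicate 3 (adjusted p = 0.0374 to 0.0443). With every library kept, EM2 also passed with the DESeq2 Wald test, limma-voom and the test on log2(TPM + 1) (adjusted p = 0.0224, 0.0196 and 0.0322). Of 32 alternatives, 21 left it uncalled. Parental was not called (-0.97 ± 0.35, adjusted p = 0.0828). It passed with the DESeq2 Wald test and limma-voom (adjusted p = 0.0375 and 0.0462), and 25 of 30 alternatives left it uncalled. The EM1 call was lost without E replicate 2, E replicate 3, EM1 replicate 1 or EM1 replicate 2 (adjusted p = 0.0530, 0.0675, 0.0888 and 0.0955). The order of mean levels was E, Parental, EM2, EM1, EM3, M1, M2. Neighbours in that order overlapped among Parental and the EM clones, and nowhere else.

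**Figure D2:**
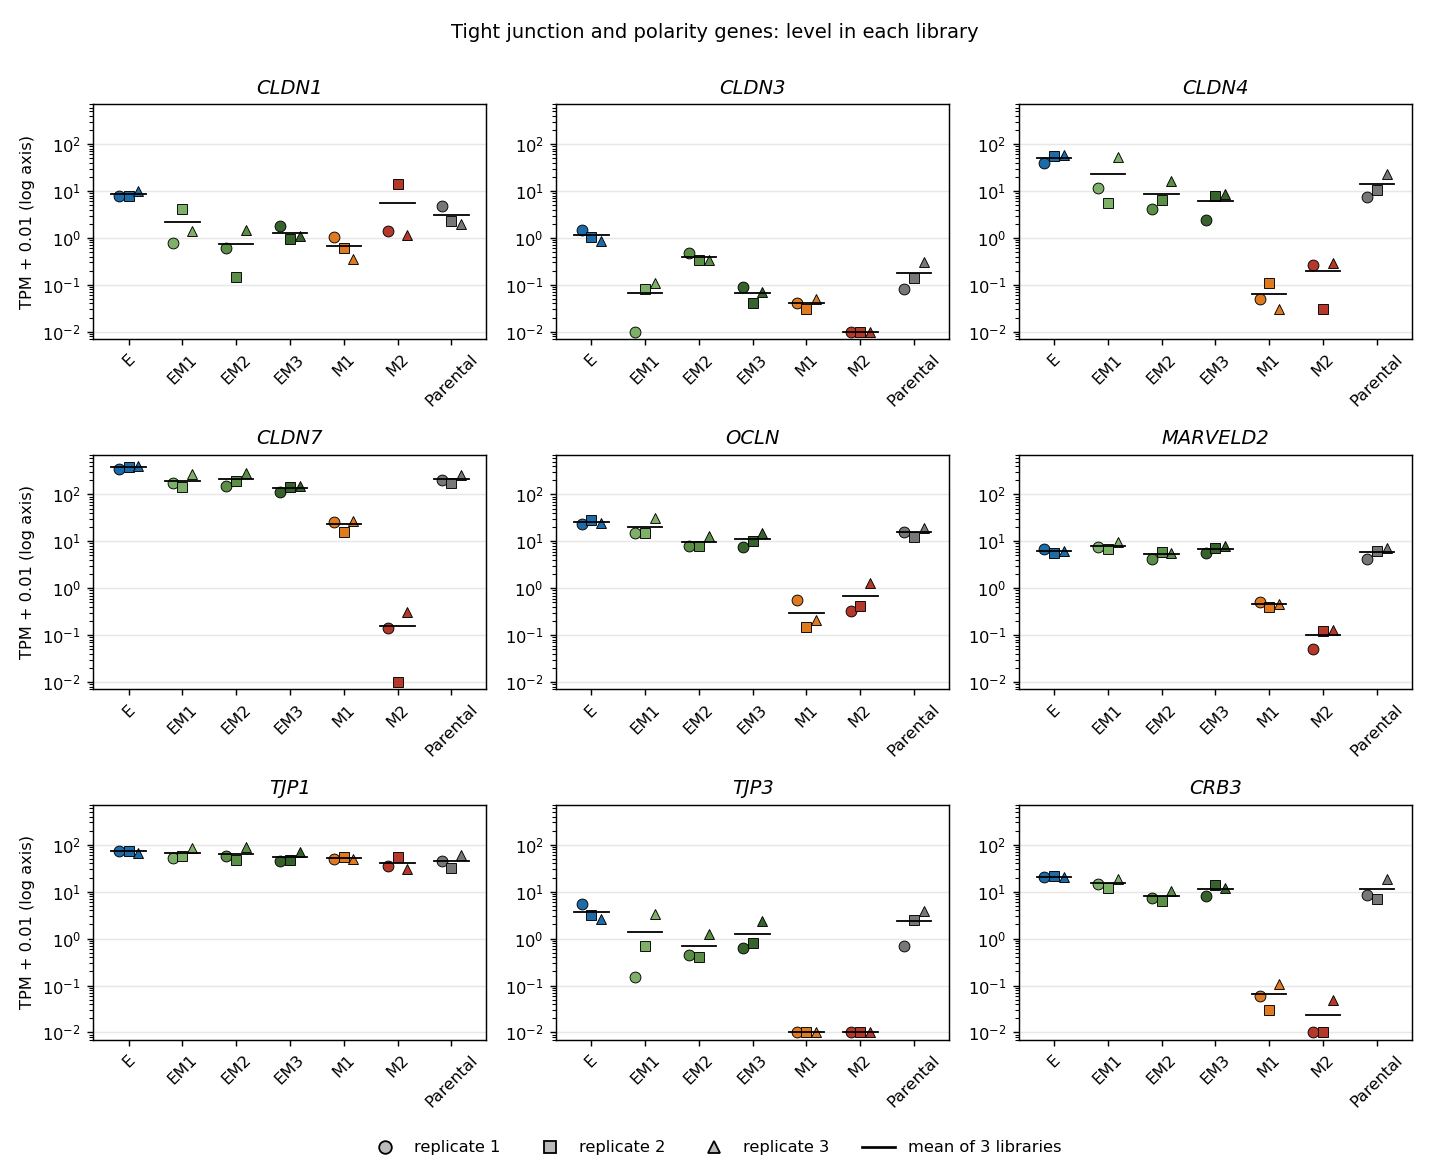
TPM of each gene in each of the 21 libraries (y axis, TPM + 0.01, log axis) by line; circles, squares and triangles are replicates 1, 2 and 3 and the bar is the mean of the 3 libraries. M1 and M2 drop below the other lines for CLDN4, CLDN7, OCLN, MARVELD2, TJP3 and CRB3, whereas TJP1 stays between 30.2 and 89.6 TPM throughout.

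CLDN4, a claudin of tight epithelia and the neighbour of CLDN3, was near absent from both M clones. E held 40.2, 55.4 and 57.1 TPM, while M1 held 0.04, 0.10 and 0.02 and M2 held 0.25, 0.02 and 0.28. The 3 M1 libraries together had 8 counts and the 3 M2 libraries 44, beside 15323 in E. The log2 fold change was -10.66 ± 1.20 in M1 (adjusted p = 1.78e-06) and -8.20 ± 1.03 in M2 (2.68e-06). EM1 was uneven, with 11.3, 5.48 and 52.1 TPM. EM2 held 4.09, 6.35 and 16.0, EM3 held 2.36, 7.95 and 8.42, and Parental held 7.49, 10.2 and 23.5. EM1 replicate 3 lay within the range of E, and replicate 3 was the highest library of each EM clone for this gene. EM2 (-2.75 ± 0.77, adjusted p = 0.0223) and EM3 (-3.44 ± 0.80, 0.00574) were lower than E, and both calls held with the set as a term. The EM2 call was lost without E replicate 2, E replicate 3, EM2 replicate 1 or EM2 replicate 2 (adjusted p = 0.0574, 0.0622, 0.106 and 0.106). Parental missed the threshold (-2.21 ± 0.76, adjusted p = 0.0663) and passed without EM1 replicate 2, EM1 replicate 3 or EM2 replicate 3 (adjusted p = 0.0225 to 0.0489). It also passed with the DESeq2 Wald test and limma-voom (adjusted p = 0.0245 and 0.03), and 22 of 30 alternatives left it uncalled. EM1 was not called (-1.42 ± 0.74, adjusted p = 0.189). Without EM1 replicate 3 its value was -3.08 (adjusted p = 0.0072), and in the short set alone, where EM1 is that 1 library, it was -0.19.

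CLDN3 was scarce everywhere, with at most 1.46 TPM. E held 1.46, 1.03 and 0.87 TPM from 207 counts, and EM2 held 0.47, 0.32 and 0.33 from 50. The other lines were lower still: EM1 had 7 counts, EM3 had 7, M1 had 4, Parental had 16 and M2 had none. In M2 it was at least 54.3-fold lower than in E, a bound from 3 counts over the 3 libraries, which covers counting error only. E lay above every library of the other lines. CLDN3 was called in all 6 comparisons with E, and in lines with counts the log2 fold change ran from -1.89 ± 0.56 in EM2 (adjusted p = 0.0333) down to -5.41 ± 0.72 in M1 (2.37e-05). The EM2 call was lost with the set as a term (-1.49, adjusted p = 0.11) and when any E or EM2 library was left out (adjusted p = 0.0668 to 0.135).

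CLDN1, the claudin whose loss breaks the skin barrier in mice, followed another pattern. E held 7.93, 7.86 and 9.91 TPM, M1 held 1.02, 0.60 and 0.35, and M2 held 1.39, 14.2 and 1.17. A single M2 library therefore lay above every other library of the series, and the other 2 lay with the EM clones. EM1 held 0.77, 4.20 and 1.39 TPM, EM2 held 0.61, 0.14 and 1.44, EM3 held 1.78, 0.96 and 1.09, and Parental held 4.77, 2.31 and 1.93. CLDN1 was lower than E in EM2 (-3.74 ± 0.94, adjusted p = 0.0117), EM3 (-3.15 ± 0.92, 0.0234) and M1 (-4.60 ± 0.99, 0.00132). The EM3 call was lost with the set as a term (adjusted p = 0.0519) and without E replicate 2, E replicate 3 or any EM3 library (0.0503 to 0.102), and the EM2 call was lost without EM2 replicate 1 (0.0629) or EM2 replicate 2 (0.0521). EM1 missed the threshold over all libraries (-2.26 ± 0.88, adjusted p = 0.0832) and was lower without M2 replicate 2 (-2.26, adjusted p = 0.0347). With every library kept, EM1 was lower with the DESeq2 Wald test, limma-voom and the test on log2(TPM + 1) (adjusted p = 0.026, 0.0167 and 0.0397). Of 32 alternatives, 25 left it uncalled. In the short set alone the EM1 value was -2.82. M2 was not called over all libraries (-0.92 ± 0.85, adjusted p = 0.379), with its libraries on both sides of those of E. With every library kept, M2 was lower with limma-voom (-1.91, adjusted p = 0.026) and without the low-count filter (-0.97, adjusted p = 0.0166). Of 32 alternatives for M2, 28 left it uncalled. It was lower without M2 replicate 2 (-2.87, adjusted p = 0.0116), and its value was -2.80 in the short set alone, which lacks that library. Parental was not called (-1.54 ± 0.86, adjusted p = 0.244). KLF4, a transcription factor of epithelial differentiation named here after its values were seen, was also high in that library, at 36.9 TPM beside 8.68 and 5.19 in the other M2 libraries; any link between them was not tested.

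Summed over the 24 claudin genes in the tables, the claudin level was 482 ± 46.4 TPM in E (SD, n = 3 here and below), 260 ± 94.96 in EM1, 256 ± 74.6 for EM2, 177 ± 27.2 for EM3 and 253 ± 53.5 for Parental. It was 55.1 ± 8.13 in M1 and 23.3 ± 6.40 in M2. CLDN7 made up 76.06 to 85.27% of that sum in E, the EM clones and Parental, 41.15% in M1 and 0.73% in M2. CLDN12, a claudin without the usual scaffold-binding tail, made up 49.98% in M1 and 68.19% in M2 beside 7.66% in E, and in M1 replicate 3 CLDN7 (48.37%) exceeded it (44.23%). The level of CLDN12 itself was not higher there: it was 36.9 ± 4.26 TPM in E, 27.2 ± 2.58 in M1 and 15.1 ± 0.78 in M2 (adjusted p = 0.622 in M1 and 0.00585 in M2, where the log2 fold change was -1.08). In M2 replicate 2, CLDN1 made up 46.27% of the sum, about as much as CLDN12 (46.79%).

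**Figure D3:**
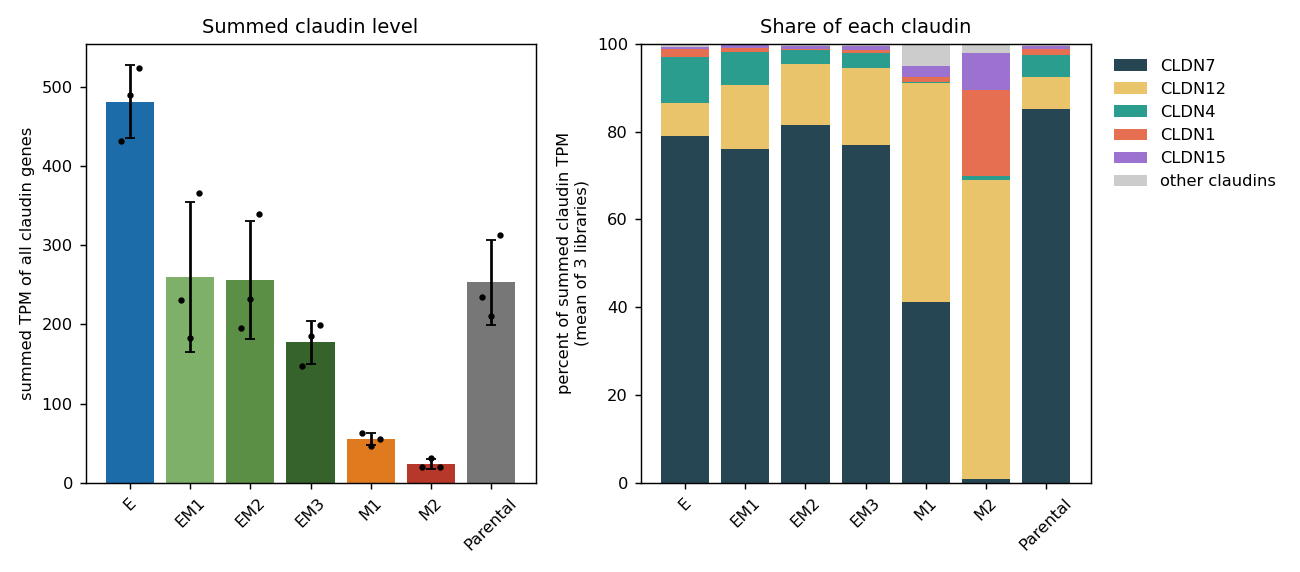
Left, summed TPM of all 24 claudin genes by line (bars, mean ± SD of 3 libraries; points, libraries). Right, mean percent of that sum held by CLDN7, CLDN12, CLDN4, CLDN1, CLDN15 and the rest; CLDN7 falls from 78.94% in E to 0.73% in M2, where CLDN12 holds 68.19%.

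Of the 20 other claudins, 6 passed the low-count filter. In M1, 3 of the 6 were lower (CLDN8, CLDN16 and CLDN23) and CLDN11 was higher, beside 18.1% of all genes lower and 18.1% higher. In M2, 3 were lower (CLDN8, CLDN12 and CLDN23), beside 26.8% of all genes. The median of the 6 was -1.91 and -1.76 on the log2 scale. CLDN11, the claudin of myelin and of Sertoli cells, held 4.02, 1.73 and 1.11 TPM in M1 and at most 0.26 in any library of another line (adjusted p = 2.49e-05 against E). CLDN23 fell from 1.15 ± 0.13 TPM in E to 0.25 ± 0.08 in M1 (adjusted p = 9.77e-05) and had no count in M2.

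OCLN, the first membrane protein of the tight junction to be identified, was lower in both M clones by a wide margin. E held 23.9, 28.3 and 24.8 TPM, M1 held 0.54, 0.14 and 0.20, and M2 held 0.32, 0.41 and 1.26. The log2 fold change against E was -6.56 ± 0.41 in M1 (adjusted p = 1.47e-09) and -5.15 ± 0.38 in M2 (3.04e-09). EM1 held 14.8, 14.9 and 31.4 TPM, EM2 held 7.95, 7.84 and 12.7, EM3 held 7.75, 10.1 and 15, and Parental held 15.8, 12.6 and 19.0. The libraries of EM2, EM3 and Parental lay below those of E, and EM1 overlapped E through replicate 3. EM2 (-1.65 ± 0.32, adjusted p = 0.00211) and EM3 (-1.44 ± 0.32, 0.0044) were called, also with the set as a term. Their values in the short set alone were -1.17 and -1.14. In EM1 the value was -0.45 ± 0.32 (adjusted p = 0.334), and 0.11 in the short set alone. Parental missed the threshold (-0.90 ± 0.32, adjusted p = 0.0765) and passed without EM1 replicate 3 (-0.89, adjusted p = 0.0446). It also passed with the DESeq2 Wald test and limma-voom (adjusted p = 0.0404 and 0.0357), and 24 of 30 alternatives left it uncalled.

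MARVELD2 did not follow the decline across the EM clones. E held 6.88, 5.67 and 6.22 TPM, EM1 held 7.53, 6.93 and 9.78, EM2 held 4.14, 5.88 and 5.69, and EM3 held 5.72, 7.23 and 8.04. Parental held 4.11, 6.19 and 7.14. These 5 lines overlapped, except that the 3 libraries of EM1 lay above every library of E and of EM2. EM1 was not called against E (0.34 ± 0.24, adjusted p = 0.34, and 0.37 in the short set alone). The M clones were apart from all 5 lines, at 0.50, 0.38 and 0.46 TPM in M1 and 0.04, 0.11 and 0.12 in M2. The log2 fold change against E was -4.09 ± 0.28 in M1 (adjusted p = 4.55e-09) and -6.80 ± 0.34 in M2 (1.64e-11). No EM clone passed the test against E for this gene. Parental did not differ from E beyond the spread (0.02 ± 0.24, adjusted p = 0.965), and the sign of that value turned under several alternatives.

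Among 8 other membrane proteins of the junction, 6 were tested. In M1, 5 of the 6 were lower than in E and JAM2 was higher (median -4.97), beside 18.1% of all genes lower and 18.1% higher. In M2 all 6 were lower (median -7.96, or -6.41 with the gene without counts set to its bound), beside 26.8% of all genes. With the set as a term, 5 of the 6 were lower in M2, beside 29.3% of all genes. MARVELD3, the third MARVEL protein of the junction, fell from 5.79 ± 0.29 TPM in E to at most 0.02 in any M library (adjusted p = 6.62e-11 in M1 and 8.18e-12 in M2). F11R (JAM-A), an adhesion protein, fell from 20.1 ± 2.37 TPM to 2.72 ± 1.31 in M1 (adjusted p = 4.96e-08) and 0.03 ± 0.06 in M2 (2.07e-12). LSR (angulin-1), which recruits tricellulin to corners between cells, fell from 70.9 ± 1.3 TPM to 0.59 ± 0.04 in M1 and 1.59 ± 0.16 in M2 (adjusted p = 1.09e-09 and 1.31e-09). JAM2, an adhesion protein of vessel walls, held 6.82, 5.47 and 6.68 TPM in M1 and at most 2.52 elsewhere (adjusted p = 2.72e-06 against E). In the EM clones, LSR was lower in EM1 and EM3 and ILDR1 in EM2, while JAM2 was higher in EM2.

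By fitted log2 fold change, TJP1 differed least from E of the 9 genes in EM1, EM2, M1 and M2, while MARVELD2 differed less in EM3 and Parental. E held 74.6, 74.2 and 67.5 TPM, M1 held 50.7, 54.2 and 49.4, and M2 held 35.9, 53.6 and 30.2. EM1 held 52.8, 57.3 and 86.3 TPM, EM2 held 58.7, 46.4 and 89.6, EM3 held 45.9, 48.2 and 69.01, and Parental held 46.01, 32.2 and 59.4. M1, M2 and Parental lay below E without overlap, whereas each EM clone overlapped E through replicate 3. M2 was called lower (-0.78 ± 0.26, adjusted p = 0.017), a call lost without M2 replicate 1 (adjusted p = 0.0835) or M2 replicate 3 (0.0714). M1 was not called (-0.42 ± 0.26, adjusted p = 0.208), but it was in the fit of M1 and E alone (-0.44, adjusted p = 0.024). In the short set alone the M1 value was -0.48.

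TJP3, the ZO protein of epithelia, was lost from both M clones. E held 5.48, 3.11 and 2.67 TPM from 937 counts, and neither M1 nor M2 had a count in any library. It was at least 281-fold lower in M1 and at least 246-fold lower in M2 than in E, bounds from 3 counts over the 3 libraries of a line. The EM clones and Parental lay between and varied widely: EM1 held 0.14, 0.68 and 3.27 TPM, EM2 0.44, 0.40 and 1.25, EM3 0.62, 0.80 and 2.31, and Parental 0.70, 2.5 and 3.96. None of these 4 lines passed the test against E, with log2 fold changes of -1.89 ± 0.99, -2.42 ± 1.01, -1.71 ± 0.98 and -0.94 ± 0.97 (adjusted p = 0.201, 0.138, 0.256 and 0.54). All 3 EM clones passed with limma-voom (-2.71, -2.93 and -2.23, adjusted p = 0.0281, 0.0198 and 0.0478). Replicate 3 was again the highest of each EM clone, and without EM1 replicate 3 EM1 was lower (-3.66, adjusted p = 0.0321). In the short set alone the values were -0.66 for EM1, -1.27 for EM2 and -0.61 for EM3, and that EM1 library lay within the range of E.

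Of 9 other scaffold genes (CGN, CGNL1, MAGI1, MAGI2, MAGI3, MPDZ, AMOT, AMOTL1 and AMOTL2), some were lower and some higher. In M1, CGN, CGNL1 and MAGI1 were lower than in E, and MPDZ and AMOTL1 were higher. In M2, CGN and MAGI2 were lower, and MAGI1, MAGI3 and AMOTL1 were higher. Over all genes tested, 18.1% were lower and 18.1% higher in M1, and 26.8% were lower and 24.6% higher in M2. These calls are therefore not read as a trait of the scaffolds as a group. CGN (cingulin), which links ZO proteins to actin, fell from 4 ± 1.11 TPM in E to 0.49 ± 0.52 in M1 (adjusted p = 5.58e-08) and 0.09 ± 0.14 in M2 (3.1e-10). It was also lower in EM1, EM2 and EM3 (adjusted p = 0.00217, 0.00394 and 0.000493). AMOTL1, an angiomotin family scaffold, rose in all 5 of these clones, from 6.05 ± 0.48 TPM in E to between 10.3 ± 1.86 in M1 and 19.9 ± 6.38 in EM2.

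CRB3 was near absent from the M clones. E held 20.2, 21.8 and 21.1 TPM, M1 held 0.05, 0.02 and 0.10, and M2 held 0, 0 and 0.04. M1 had 6 counts and M2 had 1, beside 2445 in E. The log2 fold change was -8.41 ± 0.54 in M1 (adjusted p = 1.87e-09), and in M2 the ratio of E to M2 in depth-scaled counts was 1920 (exact 95% interval 345 to 76000, counting error only; adjusted p = 2.3e-10). EM1 held 14.3, 12.0 and 18.6 TPM, EM2 held 7.37, 6.23 and 10.5, EM3 held 8.27, 14.1 and 11.9, and Parental held 8.58, 7.10 and 18.8, all below every E library. EM2 (-1.57 ± 0.36, adjusted p = 0.00634) and EM3 (-1.08 ± 0.36, 0.0421) were called, and the EM3 call was lost with the set as a term (-0.70, adjusted p = 0.0716). It was also lost without any 1 library of E or EM3 (adjusted p = 0.0674 to 0.166), without EM2 replicate 1 (0.0522) and without M1 replicate 1 (0.0507). EM1 was not called (-0.67 ± 0.35, adjusted p = 0.195), nor was Parental (-0.86 ± 0.35, adjusted p = 0.121), which passed without Parental replicate 3 (-1.34, adjusted p = 0.0403). Parental also passed with limma-voom and the test on log2(TPM + 1) (adjusted p = 0.0417 and 0.0402). Of 30 alternatives, 26 left it uncalled.

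Of 18 other polarity genes, 16 were tested, and they did not move as a block. In M1, 9 were lower and 2 higher than in E (median -0.70), and in M2, 7 were lower and 5 higher (median -0.07). Over all genes tested, 18.1% were lower and 18.1% higher in M1, and 26.8% were lower and 24.6% higher in M2. The 2 and 5 genes that rose are thus a share near that of all genes. PATJ, which joins CRB3 to the junction, fell from 10.8 ± 1.12 TPM to 2.39 ± 0.18 in M1 (adjusted p = 9.04e-10) and 0.54 ± 0.13 in M2 (2.07e-12). PRKCZ, an atypical protein kinase C of the PAR complex, was 4.60 ± 1.20 TPM in E, 3.72 ± 1.02 in M1 (adjusted p = 0.0211, libraries overlapping) and 0.20 ± 0.12 in M2 (7.34e-09). LLGL2, a basolateral polarity protein, was lower in all 5 clones, from 19.6 ± 2.29 TPM in E to between 0.70 ± 0.28 in M1 and 10.7 ± 3.16 in EM1. PARD3B, a relative of the PAR scaffold, rose from 0.81 ± 0.32 TPM in E to 5.60 ± 0.27 in M2 (adjusted p = 1.14e-09) and did not pass in M1 (0.81 ± 0.30).

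M1 and M2 were compared directly, as both carry the letter M. Of the 8 genes tested, 2 were lower in M2 than in M1 (22.2% of all genes tested) and 2 were higher (19.0%), shares near those of all genes. CLDN7 was lower in M2 by 7.56 on the log2 scale (-7.56 ± 0.55, adjusted p = 3.87e-09), and MARVELD2 was also lower (-2.70 ± 0.32, adjusted p = 2.01e-06), both without overlap of libraries. CLDN1 was higher in M2 (3.68 ± 0.95, adjusted p = 0.00436), but without M2 replicate 2 the value was 1.74 (adjusted p = 0.0898). OCLN was higher in M2 (1.40 ± 0.36, adjusted p = 0.00437), although in TPM the libraries overlapped, neither test on TPM passed, and the call was lost in the long set alone (0.99, adjusted p = 0.0527). TJP3 had no count in either clone and was not tested. At this depth CLDN3 (4 counts in M1 and none in M2) and CRB3 (6 and 1) gave no call, with adjusted p = 0.056 and 0.125, and CLDN3 was lower in M2 with the set as a term (-3.56, adjusted p = 0.0469). TJP1 was not called (-0.35 ± 0.26, adjusted p = 0.289) and was lower in M2 without M2 replicate 2 (-0.71, adjusted p = 0.0298).

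Replicate 3 stood out across the EM clones. Of 27 pairs of a member and an EM clone, replicate 3 held the highest TPM in 21 and the lowest in 0, and of 18 pairs in the M clones it was highest in 8 and lowest in 5. The same count was not made over all genes, so it is not read as particular to the members. With the set as a term, the number of members lower than E was 2 for EM1, 4 for EM2, 4 for EM3 and 8 for each M clone, beside 2, 5, 6, 8 and 8 without it. That fit called 8.49, 9.42, 9.37, 19.5 and 29.3% of all genes tested lower in these 5 clones. In the short set alone, where each clone other than E has 1 library that is assumed to vary like those of E, it was 4, 7, 6, 9 and 9. Calls over all genes were more frequent there too, at 20.6, 17.5, 21.3, 28.3 and 36.6% lower. The part of this set in the differences between E and the EM clones was not tested beyond these fits.

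Genes for a surface partner of claudins (EPCAM) and for membrane proteases and their inhibitors were lower in the M clones. EPCAM, ST14, PRSS8, SPINT1 and SPINT2 were each lower than E in M1 (log2 fold changes of -8.93 to -3.83) and in M2 (-11.67 to -8.02), and each was lower in the M clones than in the EM clones (-9.21 to -7.09). EPCAM binds CLDN7 and keeps it from degradation. It fell from 168 ± 4.01 TPM in E to 1.98 ± 1.70 in M1 (adjusted p = 9.54e-10) and 0.13 ± 0.04 in M2 (1.18e-11). The protease ST14 (matriptase) fell from 61.6 ± 5.25 TPM to 0.17 ± 0.04 and 0.04 ± 0.04, and its inhibitor SPINT2 from 381 ± 1.98 to 2.09 ± 1.08 and 1.5 ± 1.44 (adjusted p at most 1.32e-09 for the 4 tests). In the EM clones, ST14 was lower in EM2 (adjusted p = 0.0461, and 0.0597 with the set as a term) and in EM3 (0.00475), and EPCAM, PRSS8, SPINT1 and SPINT2 gave no call.

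Of 13 transcription factors known to act on junction genes, 7 were lower and 4 higher than E in M1, and 8 were lower and 3 higher in M2 (medians -1.69 and -1.48). The shares over all genes were 18.1% lower and 18.1% higher in M1, and 26.8% and 24.6% in M2, so the 3 that rose in M2 are a share near the background. GRHL2, an activator of CLDN4 and other junction genes, held 51.5, 23.3 and 32.6 TPM in E and at most 0.02 in M1 and 0.21 in M2 (adjusted p = 2.19e-10 and 3.19e-11). It was higher than in E in the EM clones, at 201 ± 113 TPM in EM1 (adjusted p = 0.00153), 130 ± 18.7 in EM2 (0.0166) and 92.3 ± 34.1 in EM3 (0.0448), and in Parental, at 234 ± 70.7. The EM2 and EM3 calls were lost with the set as a term (adjusted p = 0.0732 and 0.348). The related genes GRHL1 and GRHL3 went the other way in these lines. In the fit of all libraries both were lower than E in EM1, EM2, EM3 and Parental, as in M1 and M2. The zinc-finger repressors OVOL1 and OVOL2, which help to keep the epithelial state, were at most 0.06 TPM in the M clones, beside 11.6 ± 1.16 and 5.67 ± 0.23 in E. ZEB1, the repressor, held 0.08, 0.35 and 0.09 TPM in E, 33.3 ± 6.10 in M1 and 26.7 ± 6.25 in M2 (adjusted p = 3.53e-09 and 1.42e-09). It was higher than E in each EM clone too, at 0.61 ± 0.27 TPM in EM1 (adjusted p = 0.00178), 1.33 ± 0.68 in EM2 (0.00025) and 3.38 ± 0.76 in EM3 (5.09e-06), and a set term in the fit left these 3 calls in place. In the EM clones, then, ZEB1 and GRHL2 transcripts were measured together with CLDN7 at 113 TPM or more in every library. The 4 epithelial check genes (KRT8, KRT18, KRT19 and CDH1) were lower in both M clones, and CDH1 (E-cadherin) fell from 108 ± 17.3 TPM in E to 0.08 ± 0.04 in M1 and 0.05 ± 0.05 in M2. KRT8, KRT18 and KRT19 were also lower than E in EM1, EM2 and EM3, as were CDH1 in EM3 and KRT8 in Parental.

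Across the 21 libraries, Pearson correlations of log2(TPM + 1) over all 36 pairs of members had a median of 0.59 (0.04 to 0.98). Over the 21 pairs without CLDN1 and TJP1 the median was 0.82 (0.40 to 0.98). CLDN1 and TJP1 were set apart with results of these data known, so the higher median does not test whether the rest vary together. CLDN3, which was kept, had values of 0.40 to 0.68, a range that overlaps that of TJP1 (0.26 to 0.62). OCLN and CRB3 were the closest pair (r = 0.981), although they lie on different chromosomes. The neighbours MARVELD2 and OCLN had r = 0.947, and the neighbours CLDN3 and CLDN4 had r = 0.68. Pairs with CLDN1 had a median of 0.28 and pairs with TJP1 a median of 0.53. These values describe 7 lines of 3 libraries each, not 21 independent samples. Over the 15 libraries outside the M clones, a choice made after seeing the data, the median of the 21 pairs was 0.66 (-0.20 to 0.93). OCLN and CRB3 had r = 0.849 there, whereas MARVELD2 and OCLN had r = 0.437.

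**Figure D4:**
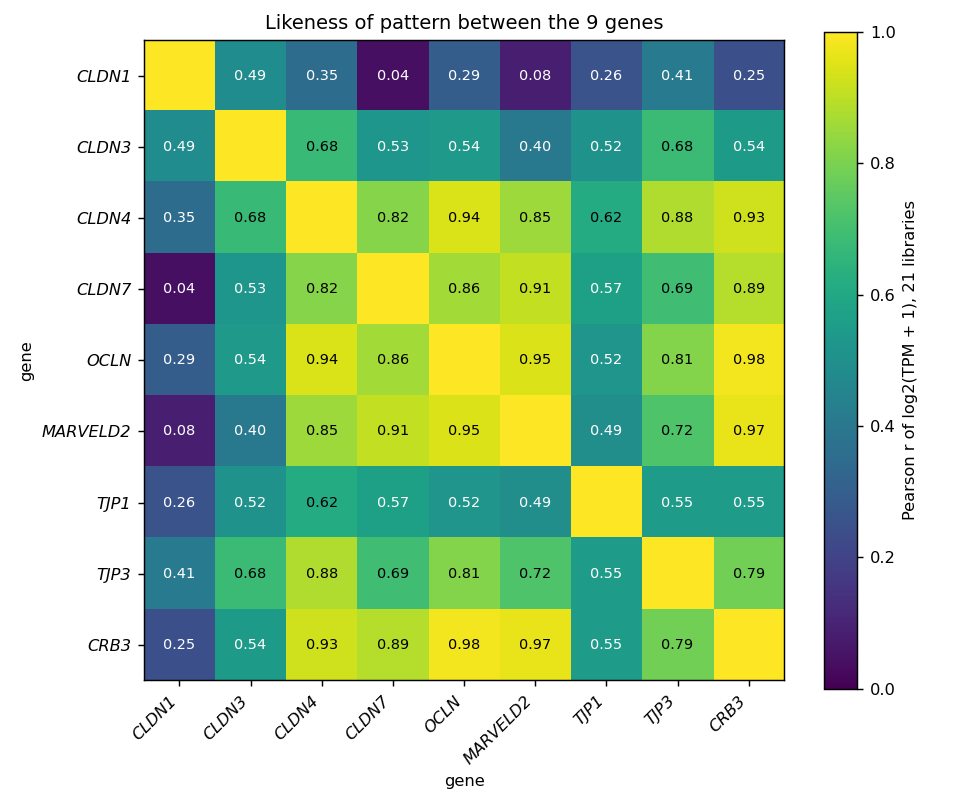
Pearson correlation of log2(TPM + 1) across the 21 libraries for every pair of the 9 genes, as colour and number. OCLN, MARVELD2, CRB3 and CLDN4 form a block of high values, from 0.85 to 0.98, while the CLDN1 row stays between 0.04 and 0.49.

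Among 13847 other genes whose mean reached 1 TPM, the most alike in pattern were sought by the same correlation, over all 21 libraries. For CRB3 they included TMEM30B (0.988) and ST14 (0.985). For OCLN they were S100A14 (0.984), FXYD3 (0.982) and JUP (0.98), the last of which encodes plakoglobin of the adherens junction and desmosome. For MARVELD2 they were KDF1 (0.985), TPD52L1 (0.985) and CNKSR1 (0.982), and for CLDN7 they were MSLN (0.984), CKMT1B (0.981) and NUP210 (0.978). CKMT1B has a near-identical copy, CKMT1A, so its level is uncertain. For CLDN4 they were FUT3 (0.962), the desmosomal cadherin gene DSG3 (0.954) and CDH1 (0.943). TJP1 had weaker matches, TRIM8 (0.892), BNC1 (0.891) and JUNB (0.884), and CLDN1 had the weakest of the 9, led by MDM4 (0.794). TJP3 was most like GREP1 (0.929), ARHGEF37 (0.926) and C1orf210 (0.911), and CLDN3 was most like C11orf86 (0.916) and SLC6A11 (0.902), followed by a gene without a symbol (0.898).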

How the data were processed

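Per the file headers, the deposited tables held, for each of 60617 genes in 21 libraries, the expected count and TPM that the authors obtained with RSEM 1.3.2 and an effective length in bases, which takes other units than the counts. Per the submitters' processing notes, bcl2fastq 2.20.0.422, cutadapt 2.4, STAR 2.7.2b and hg38 were used; annotation release and strand setting are not given in the sources used here. From 19.07 to 22.07% of the expected counts above 0 in a library were not whole; they were rounded. edgeR 4.0.16 (R 4.3.3; TMM, filterByExpr by line, robust quasi-likelihood F-test) fitted 18632 genes in all 21 libraries, with 14 residual degrees of freedom and Benjamini-Hochberg adjustment within each of 8 contrasts. The scripts were tested on simulated counts. DESeq2 1.42.0, limma 3.58.1 and single libraries left out were alternatives. Positions came from GENCODE 29, promoters from RefSeq. Python 3.11.15 and pandas 2.3.3 made tables. Members, 9 other gene lists (93 genes) and the tests were chosen with earlier results of these data known. The text names every member; of other lists, at most 6 genes called in M1 or M2 against E, without overlap, at a mean of at least 1 TPM. Some genes of these lists, and some counts and medians that include them, are not reported here. Same-numbered libraries did not all deviate together (37 of 63 pairs above 0.1, median r 0.235), so numbers were not taken as pairs.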

Additional observations from a re-analysis of the deposited data

Results flagged for a closer look

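M1 and M2 differed in 4 of the 8 genes tested, by a test of the difference itself (edgeR), while 22.2% of all genes tested were lower in M2 and 19.0% higher. CLDN7 was lower in M2 (-7.56 on the log2 scale), with all 3 libraries below all 3 of M1, and MARVELD2 was lower too (-2.70), again in 3 of 3 libraries. CLDN1 was higher in M2 (3.68), in 3 of 3 libraries, but 1 library held 14.2 TPM beside 1.39 and 1.17. Its call was lost without M2 replicate 2 (1.74, adjusted p = 0.0898), and neither test on TPM passed. OCLN was higher in M2 (1.40), with overlapping libraries in TPM, and neither test on TPM passed. Its call was also lost in the fit of M1 and M2 alone (adjusted p = 0.0604) and in the long set alone (0.0527).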

How the results depend on the processing

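Of 41 calls on single members, 29 kept direction and call under every alternative run. The 8 genes lower in M1 against E and the 8 in M2 stayed within 8 to 8 and 7 to 9 with any library left out, and the 7 lower in the M clones than in the EM clones within 7 to 8. The EM counts were less firm. In EM1 the 2 lower genes became 5 without the low-count filter or with limma-voom, 1 with a mean CPM of at least 1, 0 on log2(TPM + 0.1), and 4 with the replicate block or in the short set alone, where 1 gene (MARVELD2) was higher; leaving out libraries gave 1 to 4. In EM2 leaving out libraries gave 2 to 6 (2 without EM2 replicate 1 or 2, 3 without E replicate 2 or 3). In EM3 log2(TPM + 0.1) gave 3, and leaving out libraries 4 to 6. In Parental the 1 lower gene became 5 without the filter, with limma-voom, in the fit of the compared lines only and with the replicate block, 4 with the DESeq2 Wald test, 0 with a mean CPM of at least 1 or on log2(TPM + 0.1), and 1 to 3 with libraries left out. The 1 gene in Parental was CLDN3, which was also lower in EM1 and EM3. It was too scarce to be tested with a mean CPM of at least 1 or on TPM. In these lines its call held under every alternative that tested it. In M2 against M1, log2(TPM + 1) gave 1 lower gene, and the 2 higher became 0 on either TPM scale and 1 in the compared lines only, in the long set alone and without M2 replicate 2 (range 1 to 2; lower genes 2 to 3). The replicate block moved no other count of members by more than 1.5 times. It added calls for TJP3 in EM1, EM2 and EM3 (adjusted p = 0.00377, 0.00226 and 0.00699), CLDN4 in EM1 (0.00938), CLDN7 in EM2 (0.0035), CLDN4, CLDN7, OCLN and CRB3 in Parental (0.00442 to 0.0293) and CLDN4 in M2 against M1 (0.0465), and ended none. The best match of a library was one of its own number in 14 of 21 cases. Signs turned for OCLN in EM1 (0.11) and TJP1 in EM2 (0.18) in the short set alone, for CLDN1 in the M against the EM clones without M2 replicate 2 (-0.68, and up to 0.72 with another library left out), and for MARVELD2 in Parental (-0.06 without the filter, -0.12 and -0.14 on TPM with 1 and 0.1 added, and -0.046 to 0.152 with 1 library left out, below 0 without E replicate 2 (-0.005), Parental replicate 2 or Parental replicate 3 (-0.04)); none of these passed. Tests on TPM shifted the median of all genes to between 0.13 and 0.31 against E (0.01 to 0.04 on counts). With 1 added, calls over all genes were 612 lower and 1769 higher in EM1, 546 and 1349 in EM2, 532 and 2130 in EM3, 1611 and 3379 in M1 and 2726 and 4000 in M2, beside 1507 and 1834, 1294 and 1294, 1483 and 1744, 3367 and 3371, and 4989 and 4575. Counts of 0 to 8 over a line limit CLDN3, CLDN4, CLDN7, TJP3 and CRB3 in the M clones. Beyond the settings that left CLDN3 untested, the causes of these shifts were not tested.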
